A study of Mus musculus with 49 samples.

Results

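The late step of p53 activation in cells without Trim24, from 8 to 12 h, was measured across all genes of mouse embryonic stem cells. It comprised 6 of the 49 RNA-seq libraries of the series, 3 at 8 h and 3 at 12 h, and 17271 of the 20489 genes in the time-course table were tested. The cells were of the TC-1 line (129S6/SvEvTac), grown in serum and LIF on gelatin, and both alleles of endogenous Trim24 carried a C-terminal FKBP12(F36V)-V5 degron tag. The cells of all 6 libraries received 1 µM doxorubicin, a DNA-damaging drug that activates p53, together with 500 nM dTAG13, the compound that sends the tagged protein to degradation, for 8 or 12 h. The step was set beside that of the same line given doxorubicin alone for 8 or 12 h, in which Trim24 remained expressed, and beside the 2, 4 and 0 h groups, the last of which received neither compound; each group held 3 libraries. The tagged line was 1 picked clone, and both compounds were given together throughout, so hours of p53 activity and hours without Trim24 cannot be told apart. Because the degrader acts on the protein, Trim24 RNA does not check its removal: it stood at 69.9, 71.9 and 72.6 CPM (reads scaled to the library size) at 8 h and at 77.5, 80.6 and 74.0 CPM at 12 h.

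p53 is a transcription factor that is stabilised by DNA damage and switches on genes for cell cycle arrest, repair and death. Trim24 is a cofactor of the TIF1 family that binds p53 and, through its PHD finger, histone H3 that is not methylated at lysine 4. Embryonic stem cells under p53 activity lose their self-renewal programme, and a minority of such cells can pass through a 2-cell-like state, in which genes of the early embryo such as the Zscan4 cluster, Tcstv genes and the transcription factor Dux (Duxf3 in the table) are on. Primitive endoderm is the extraembryonic lineage beside the epiblast, marked by Gata4, Gata6 and Sox17, and it lays down a basement membrane of laminin and type IV collagen.

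The 6 libraries held 14422098 to 18924518 reads over genes. Within a group, log2 values of 2 libraries correlated at r = 0.995 to 0.9963 across genes, and between 8 and 12 h at 0.9808 to 0.9863; genes are not independent replicates. Library 1 at 8 h stood apart: it had the lowest total, and the 1137 olfactory receptor genes, which encode odour receptors, summed to 299.6 CPM in it, 201.7 and 179.4 CPM in the other 8 h libraries and 142.2 to 187.0 CPM at 12 h. Without it the step without Trim24 held 775 increases and 260 decreases, and the difference between the arms 80 and 30, in place of the counts given below. Of 8 stem cell markers none was at 0, and their summed level was 1169 to 1425 CPM at 8 h and 1010 to 1112 CPM at 12 h, against 4282 to 4342 CPM at 0 h. Of the markers of other cells, those of fibroblasts and blood cells were low. The 5 neuron markers (Dcx, Tubb3, Map2, Stmn2 and Elavl3) summed to more, 195.1 to 223.0 CPM at 8 h and 142.2 to 153.3 CPM at 12 h. At 0 h they had summed to 391.6 to 409.8 CPM. The 12 fibroblast or feeder markers summed to 56.2 to 65.9 CPM at 8 h and 82.9 to 86.7 CPM at 12 h, and the 12 blood cell markers, with Hbb-bt at 0, to 17.9 to 19.5 and 22.7 to 24.5 CPM. In bulk RNA fewer cells that express a gene and less RNA per cell cannot be told apart.

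Of the 12 genes with the largest increases 3 were on the 2-cell-like list (Tdpoz3, Tcstv1 and Pramef25), a list in which several genes are near-identical copies. Stretches of 120 bases upstream of 5 of its other members, from RefSeq on GRCm38.p6, show how alike the copies are. They lie at chr7:11005602-11005721 (Zscan4c, plus strand), chr7:11166183-11166302 (Zscan4d, minus), chr7:11397795-11397914 (Zscan4f, plus), chr7:104856896-104857015 (Usp17la, plus) and chr7:103252570-103252689 (Usp17ld, minus), each upstream of the annotated start of its gene, and capitals mark a match to the p53 decamer, the repeat unit of a p53 site.
Zscan4c: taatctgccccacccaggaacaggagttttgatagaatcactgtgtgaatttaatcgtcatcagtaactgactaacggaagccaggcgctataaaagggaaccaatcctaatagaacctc
Zscan4d: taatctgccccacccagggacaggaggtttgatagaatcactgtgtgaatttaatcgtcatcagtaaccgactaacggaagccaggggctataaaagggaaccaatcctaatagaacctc
Zscan4f: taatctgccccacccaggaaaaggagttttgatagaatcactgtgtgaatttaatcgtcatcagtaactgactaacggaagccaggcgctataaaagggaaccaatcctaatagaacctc
Usp17la: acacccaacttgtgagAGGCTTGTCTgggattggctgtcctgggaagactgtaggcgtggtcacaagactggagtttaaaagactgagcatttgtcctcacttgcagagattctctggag
Usp17ld: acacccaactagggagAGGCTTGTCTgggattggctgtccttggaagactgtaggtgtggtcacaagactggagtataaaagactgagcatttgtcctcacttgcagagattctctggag

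In these stretches Zscan4d differed from Zscan4c at 4 bases, Zscan4f from Zscan4c at 1 and Usp17ld from Usp17la at 5. Over the longest stretch that could be aligned, identity was 97.1% of 239 bases for Zscan4c and Zscan4d, 99.6% of 227 for Zscan4c and Zscan4f and 97.3% of 186 for Usp17la and Usp17ld. The authors assigned a read that matched several places to one chosen at random, so reads of such copies are shared among them and the value of 1 copy is uncertain, while their sum is less so. The p53 decamer, searched on both strands in the 250 bases before each start with no mismatch, was found in 7.13% of 32851 promoters. It stood before 3 of the 11 genes of the 2-cell-like list that have a promoter in the table (Usp17la, Usp17lc and Usp17ld, which are copies of each other). The share was 7.37% of 624 promoters of genes that rose from 8 to 12 h without Trim24 and 8.04% of 199 of those that fell, against 7.47% of 13611 tested genes. A match is a string of letters and not a bound site.

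From 8 to 12 h without Trim24, 848 genes rose and 254 fell, which is 4.91% and 1.47% of the 17271 tested and 6.38% in all. A gene was called changed at an adjusted p under 0.01 in limma with a log2 fold change of 0.75 or more in size. The 8 and 12 h libraries did not overlap in 843 of the 848 and in 244 of the 254. The thresholds favour genes whose groups lie apart, so these counts follow from the call and add no support to it. Centring each library on its median moved the split to 668 higher and 355 lower. Genes that rose were mostly low at the outset: their median was 1.51 CPM at 0 h, 3.49 CPM at 8 h and 8.32 CPM at 12 h, and 42.6% of them were under 1 CPM at 0 h against 25.8% of all tested genes. Genes that fell had a median of 5.91 CPM at 0 h, 3.76 CPM at 8 h and 1.75 CPM at 12 h.

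The earlier steps of the same arm were wider. From 0 to 4 h, 2223 genes rose (13.9% of 16014) and 1128 fell (7.04%), and from 4 to 8 h 2644 rose (15.5% of 17074) and 1444 fell (8.46%). The 4 to 8 h step shares its 8 h libraries with the 8 to 12 h step, so no overlap between those is given. Scaling moved the splits of these earlier steps, which were 1682 higher and 1582 lower from 0 to 4 h after quantile normalization and 2009 higher and 2153 lower from 4 to 8 h after median centring. With Trim24 expressed, 705 genes rose from 8 to 12 h (4.18% of 16876) and 378 fell (2.24%), 6.42% in all.

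The step moved the bulk of its genes the same way with and without Trim24. Of the 843 genes that rose without Trim24 and were tested with it, 794 had a positive change with it and 425 passed the test there too, 50.1% of that list and 60.3% of the list with Trim24. Of the 246 such genes that fell, 236 had a negative change and 133 passed, 52.4% of that list and 35.2% of the other. The medians were 1.00 without and 0.76 with Trim24 on the log2 scale for the genes that rose, and -0.87 and -0.78 for those that fell. These lists were chosen in the arm without Trim24, so their medians there are the more extreme by choice. The test of the difference between the steps is given further on.

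**Figure D1:**
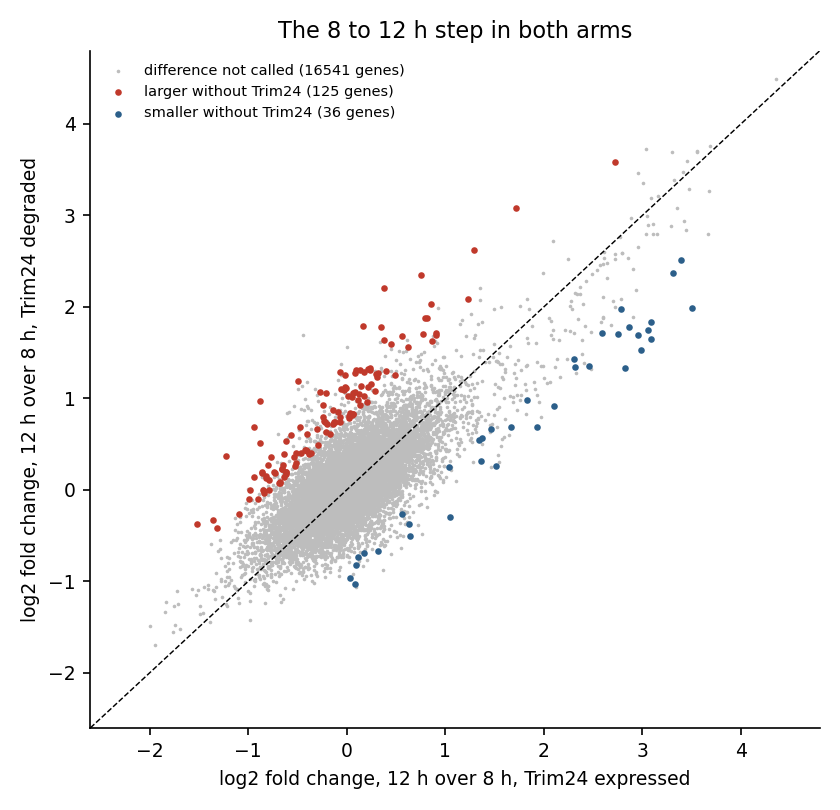
Each point is 1 of 16702 genes tested in both arms, with its log2 fold change from 8 to 12 h with Trim24 expressed on the horizontal axis and with Trim24 degraded on the vertical axis. The dashed line marks equal change, and the 125 red and 36 blue points are genes whose difference between the arms passed the test.

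Genes of the 2-cell-like list rose in both arms. Of the 20 genes listed for this state 18 were tested, and 16 of them rose (Zscan4b to Zscan4f, Duxf3, Tcstv1, Tcstv3, Usp17la, Usp17lc, Usp17ld, Usp17le, Zfp352, Tdpoz3, Tdpoz4 and Pramef25), beside 4.91% of all genes, with a median log2 fold change of 2.63 against 0.008 over all tested genes. Tdpoz3, a gene of the speckle-type POZ family at chr3:93826020-93827117, stood at 0.796, 1.14 and 1.40 CPM at 8 h and at 28.6, 31.7 and 36.7 CPM at 12 h. Every 12 h library lay far above every 8 h library, and the log2 fold change was 4.49 ± 0.13 (SE, n = 3 against 3), or 29.1-fold in CPM. Tcstv1, named for the 2-cell stage, rose from 4.14, 3.58 and 4.57 CPM to 53.6, 63.1 and 63.4 CPM, with a log2 fold change of 3.76 ± 0.10.

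Zscan4c, of the SCAN-domain zinc finger cluster whose copies are printed above, went from 27.9, 27.5 and 34.5 CPM to 150.8, 175.8 and 176.0 CPM (2.47 ± 0.08 on the log2 scale). Its neighbours Zscan4d and Zscan4f changed by 2.36 and 2.48, and the deubiquitinase copies Usp17la and Usp17ld by 2.80 and 2.97. Groups did not overlap for any of these. The 2 listed members that did not pass were Eif1a at -0.04 and Sp110 at 0.72 on the log2 scale. Over the 18 genes in the table the summed level was 365.4 to 436.0 CPM at 8 h and 1359 to 1550 CPM at 12 h. At 0 h the sum was 550.5 to 624.7 CPM, of which Eif1a alone made 525.0 CPM on average.

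Earlier steps were counted on their own. From 0 to 4 h without Trim24, 2 of the 18 rose and 1 fell (11.1% and 5.56%, beside 13.9% and 7.04% of all genes). From 4 to 8 h 15 rose and 1 fell (83.3% and 5.56%, beside 15.5% and 8.46%). Outside the list, the largest increases included Tdpoz8, BC080695, AF067061, Trim75, Pramef6, Tmem92, Tdpoz9 and 4931428L18Rik, whose log2 fold changes were between 3.36 and 3.73. AF067061, at chr13:120263114-120264517, went from 7.69, 7.62 and 10.4 CPM to 106.0, 119.1 and 120.4 CPM. Tmem92, a membrane protein gene, went from 14.8, 14.4 and 19.2 CPM to 163.4, 186.7 and 189.5 CPM. No 12 h library of either gene came near an 8 h library.

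With Trim24 expressed the same step raised 17 of the 18 (94.4% beside 4.18% of all genes), with a median log2 fold change of 2.87. The sum went from 428.8 to 484.9 CPM at 8 h to 1822 to 1989 CPM at 12 h. The difference between the arms passed the test for 1 gene of the list (5.56% beside 0.698% of all genes with a positive difference). It was Duxf3, which encodes the homeobox factor that switches the programme on. Duxf3 (chr10:58229979-58232675) stood at 64.5, 66.2 and 76.8 CPM at 8 h and at 204.1, 240.8 and 200.4 CPM at 12 h without Trim24. With Trim24 its mean went from 50.8 to 92.7 CPM, and the difference of the log2 fold changes was 0.77 (limma adjusted p = 7.81e-06). The median difference over the list was -0.14. Among the other large increases, 3110040M04Rik also differed, by 0.86 (adjusted p = 0.00516).

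**Figure D2:**
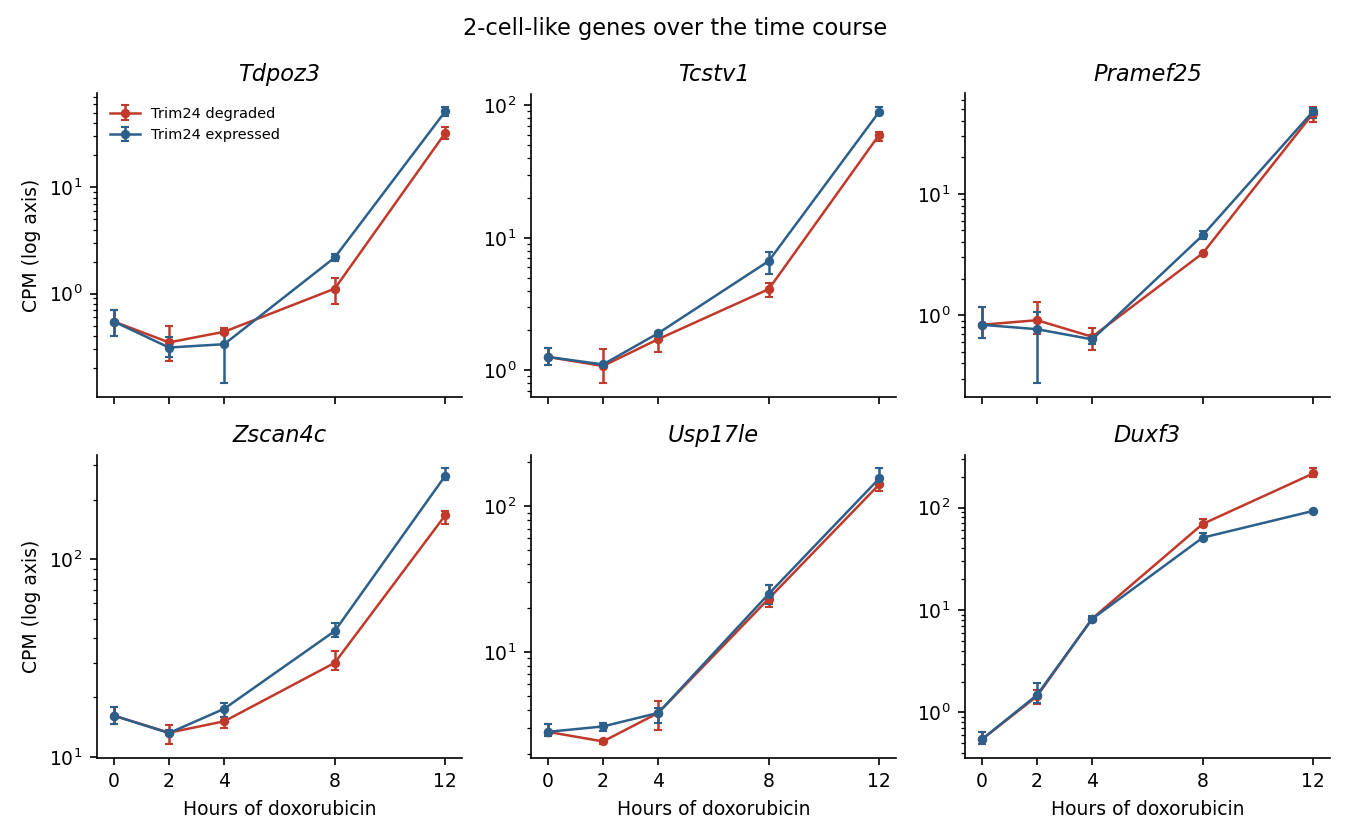
CPM on a log axis against hours of doxorubicin for 6 genes of the 2-cell-like list; points are means and bars the range of 3 libraries, red with Trim24 degraded and blue with Trim24 expressed, sharing the 0 h libraries. All 6 rose from 8 to 12 h in both arms, Duxf3 less steeply in blue. The red line of Duxf3 ended above the blue one, at 204.1, 240.8 and 200.4 CPM against a mean of 92.7 CPM.

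Of 22 naive pluripotency genes 5 fell (Tcl1, Lin28a, Nanog, Prdm14 and Tdgf1; 22.7% beside 1.47% of all genes), 2 rose (Klf2 and Klf4; 9.09% beside 4.91%) and 15 were not called, with a median log2 fold change of -0.33. From 0 to 4 h 14 of the 22 had fallen (63.6% beside 7.04% of all genes, median -1.13). From 4 to 8 h 18 had (81.8% beside 8.46%, median -1.47), each step counted on its own. Tcl1, a coactivator of the kinase Akt, was at 20.2, 19.4 and 20.3 CPM at 8 h and at 5.75, 5.87 and 6.12 CPM at 12 h, the largest decrease of the step at -1.70 ± 0.11. It had averaged 77.4 CPM at 0 h.

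Nanog, a core transcription factor of the naive state, went from 17.9, 16.6 and 15.7 CPM to 8.65, 8.27 and 9.40 CPM (-0.91 ± 0.11), after a mean of 627.6 CPM at 0 h. Lin28a, the RNA-binding protein that blocks let-7 maturation, went from 62.3, 68.4 and 60.6 CPM to 21.6, 25.3 and 20.8 CPM. In all of these the groups were apart. Klf2 and Klf4, Krüppel-like factors of the naive network, went the other way: Klf2 was at 15.7, 18.3 and 17.3 CPM at 8 h and at 32.3, 36.5 and 23.95 CPM at 12 h, and Klf4 changed by 0.77. Pou5f1, which encodes Oct4, changed by -0.51 and Zfp42 by -0.01, and neither passed the test. Prdm14, under 3 CPM in every library, was at -0.73 and not called without library 3 at 8 h.

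The other largest decreases were Slc7a3, a cationic amino acid transporter (-1.55), Dnmt3l, the cofactor of the de novo DNA methyltransferases (-1.53), Rasgrp2 (-1.48), Krt17 (-1.44), Prdm1 (-1.42), Lrrc34 (-1.35), Bcat1 (-1.35), Mep1b (-1.34), Gdf3 (-1.27) and Calcoco2 (-1.27). Dnmt3l went from 74.7, 84.3 and 81.3 CPM to 25.9, 32.2 and 25.1 CPM. Slc7a3 went from 41.4, 39.2 and 45.3 CPM to 12.9, 14.4 and 14.8 CPM. All 12 of the largest decreases, Tcl1 and Lin28a included, also fell with Trim24 expressed, and the difference between the arms passed the test for none of them. Ccnd1, which encodes cyclin D1, also fell (-1.19), the only 1 of 26 G1/S genes to do so (3.85% beside 1.47% of all genes). Tubb5, a tubulin listed as housekeeping, fell from 1292 to 1490 CPM at 8 h to 743.9 to 842.3 CPM. With Trim24 Ccnd1 and Ccnd3 fell (7.69% beside 2.24% of all genes), and so did Tubb5. No gene of the G1/S and housekeeping lists differed between the arms by the test.

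With Trim24 expressed 11 of the 22 naive genes fell (50% beside 2.24% of all genes) and none rose, with a median of -0.75. The difference between the arms passed for 2 of the 22 (9.09% beside 0.698% of all genes with a positive difference). They were Klf2, at 0.76 (adjusted p = 0.00207), whose mean with Trim24 was 27.3 CPM at 8 h and 28.7 CPM at 12 h, and the nuclear receptor gene Nr0b1, at 0.83 (adjusted p = 0.000634). In the formative and primed list, 3 of 14 genes rose without Trim24: Foxd3 (1.31), Zic2 (1.28) and Pou3f1 (1.16), all transcription factors (21.4% beside 4.91% of all genes), and none fell. With Trim24 none of 14 rose and 2 fell (14.3% beside 2.24%). Foxd3 was at 2.49, 1.92 and 1.81 CPM at 8 h and at 5.65, 6.70 and 4.72 CPM at 12 h, and its difference between the arms was 1.22 (adjusted p = 0.00125). Pou3f1 at 12 h ranged from 36.2 to 63.6 CPM, and without library 1 at 8 h its change no longer passed (adjusted p = 0.0642).

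Lefty1 and Lefty2, secreted antagonists of Nodal that lie side by side on chromosome 1, differed between the arms. Without Trim24, Lefty2 (chr1:180893108-180899103) was at 50.6, 58.6 and 55.7 CPM at 8 h and at 42.5, 43.6 and 40.6 CPM at 12 h, a change of -0.38 that did not reach the fold threshold. With Trim24 its mean fell from 88.2 to 30.7 CPM (-1.52), and the difference was 1.14 (adjusted p = 5.16e-10). Lefty1 was at 77.0, 87.5 and 97.7 CPM and then at 66.5, 74.3 and 67.7 CPM without Trim24, and fell from a mean of 75.2 to 29.2 CPM with it, a difference of 1.03 (adjusted p = 6.23e-09). Inhbb, an activin subunit, and Smad6, an inhibitory Smad, also differed, by 0.90 and 1.04. Nodal itself changed by 0.21 without Trim24 and -0.29 with it.

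**Figure D3:**
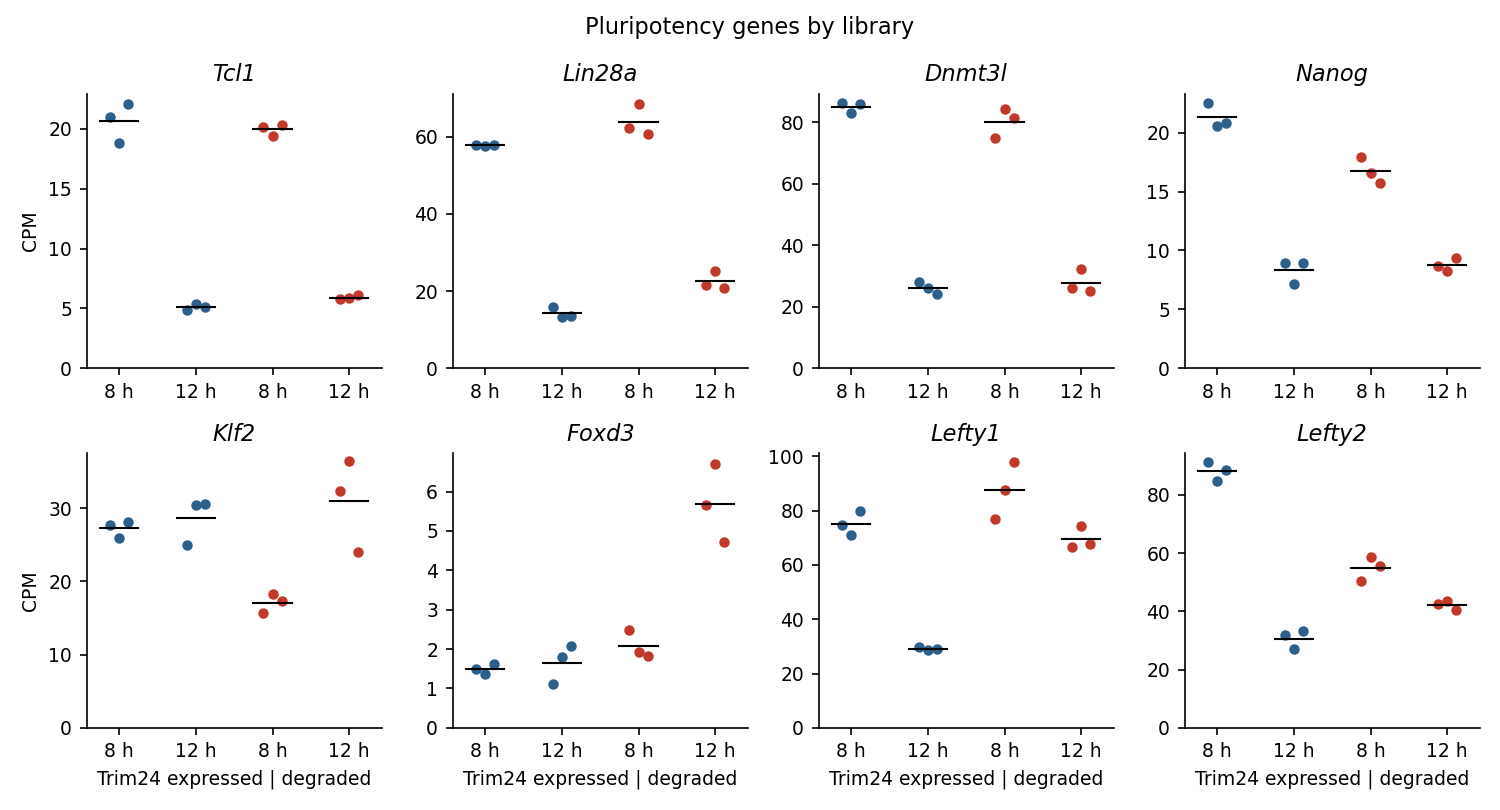
CPM of 8 genes in each library at 8 and 12 h, blue with Trim24 expressed and red with Trim24 degraded, with bars at the group means. Tcl1, Lin28a, Dnmt3l and Nanog were lower at 12 h in both arms, Klf2 and Foxd3 passed the test as higher at 12 h in the red points alone, and Lefty1 and Lefty2 dropped further in the blue points, to means of 29.2 and 30.7 CPM.

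Primitive endoderm genes rose in the arm without Trim24. Of 17 listed genes 9 rose (Sox17, Col4a1, Amn, Foxa2, Col4a2, Lama1, Dab2, Lamb1 and Gata4), 52.9% beside 4.91% of all genes, and none fell, and the median log2 fold change was 0.80. With Trim24 expressed 1 rose, Foxa2 (5.88% beside 4.18% of all genes), and the median was 0.007. The difference between the arms passed the test for 7 of the 17 (Gata4, Sox17, Dab2, Amn, Lama1, Col4a1 and Col4a2), beside 0.698% of all genes with a positive difference. From 0 to 4 h 6 of the 17 had fallen (35.3% beside 7.04% of all genes), and from 4 to 8 h none passed in either direction.

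Of the transcription factors, Sox17 (chr1:4490931-4497354) was at 1.22, 1.56 and 2.04 CPM at 8 h and at 4.54, 7.25 and 5.54 CPM at 12 h, a log2 fold change of 1.64 ± 0.16. Its mean with Trim24 went from 1.78 to 2.39 CPM, and the difference was 1.27 (adjusted p = 0.00234). Gata4 went from 2.60, 2.18 and 2.94 CPM to 5.22, 4.85 and 4.10 CPM (0.80 ± 0.16), with a difference of 1.04 (adjusted p = 0.00266). Groups without Trim24 were apart for both. Gata6 changed by 0.50 and Sox7 by 0.35, and Hnf4a by -0.52, none past both thresholds.

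Of the basement membrane genes, Col4a1 (chr8:11198423-11312826), a chain of type IV collagen, was at 337.3, 407.0 and 402.4 CPM at 8 h and at 968.3, 1045 and 799.4 CPM at 12 h. Its 12 h libraries were all higher than its 8 h libraries, by 1.29 ± 0.07 on the log2 scale, while the mean with Trim24 went from 359.0 to 404.0 CPM (difference 1.12, adjusted p = 1.82e-08). Its divergently transcribed neighbour Col4a2 changed by 1.27, and the laminin chains Lama1 by 1.16 and Lamb1 by 0.91. Lama1 went from 301.2, 341.2 and 355.4 CPM to 771.9, 782.6 and 678.5 CPM. Lamc1 (0.54) and Sparc (0.61) were under the fold threshold.

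Of the endocytic receptors and adaptors of this epithelium, Amn, which encodes amnionless, rose by 1.29 and Dab2, a clathrin adaptor, by 1.11, with differences of 1.36 and 1.12. Cubn, the partner of amnionless, changed by 0.68. The summed level of the 17 genes was 2478 to 2887 CPM at 8 h and 4484 to 5272 CPM at 12 h without Trim24, 2375 to 2703 and 2638 to 2739 CPM with Trim24, and 2874 to 2932 CPM at 0 h. A sum over 5 defining markers, none at 0, was 17.7 to 18.9 CPM at 8 h and 37.0 to 41.7 CPM at 12 h, under the 47.4 to 49.0 CPM of untreated cells. The median transcript GC content of the list was 53.7% against 50.2% of tested genes, and after a correction for GC content 8 of the 17 rose and 6 differed between the arms. Without library 1 at 8 h 9 rose and 5 differed, and in limma without trend and robust 9 rose and 1 differed.

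**Figure D4:**
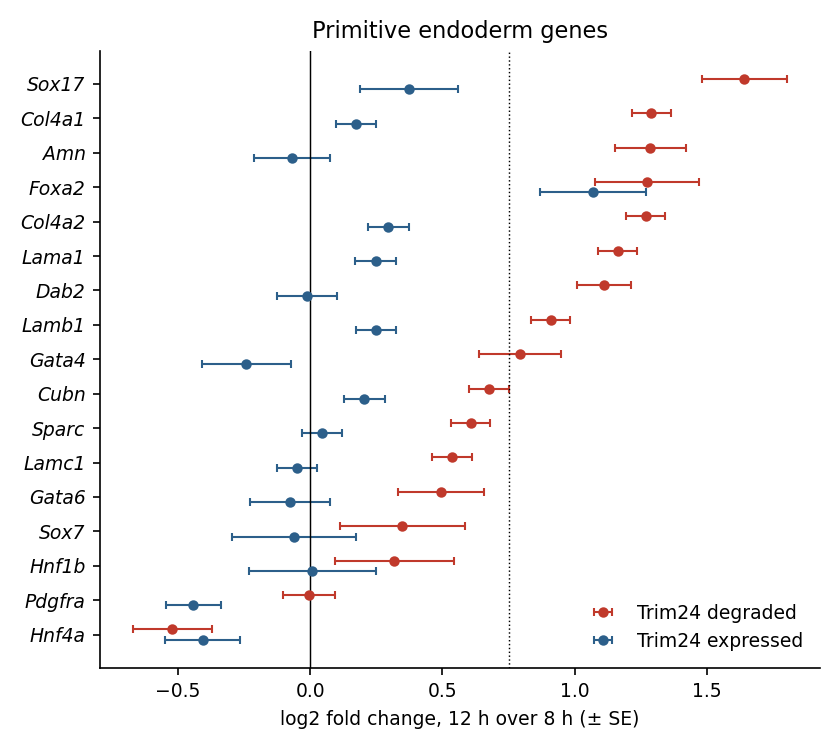
Log2 fold change from 8 to 12 h of the 17 primitive endoderm genes with its SE (n = 3 against 3), red with Trim24 degraded and blue with Trim24 expressed; the dotted line marks the fold threshold of 0.75. The 9 red points past the line were called higher, while of the blue points Foxa2 alone lay past it.

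Matrix genes outside this list rose as well. Of 21 collagen and matrix genes 6 rose: Adamts1 (2.03), Fbn1 (1.29), Loxl2 (1.12), Col6a1 (1.04), Col1a1 (1.01) and Timp2 (0.78), which is 28.6% beside 4.91% of all genes. With Trim24 4 of 20 rose (20% beside 4.18%), namely Adamts1, Fbn1, Col6a1 and Col1a1, and 1 fell. Adamts1, a secreted protease that cleaves proteoglycans, went from 4.93, 5.19 and 6.30 CPM to 22.9, 26.0 and 21.3 CPM, and its step was 1.17 larger than with Trim24 (adjusted p = 7.81e-06). Loxl2, a collagen cross-linking enzyme, differed by 0.91. Of 22 YAP and SRF targets and cytoskeleton genes 2 rose (9.09% beside 4.91%), Thbs1 by 2.00 and Ccn2 by 1.88, and Myl9 fell (-0.78), with a list median of 0.04. Thbs1 and Ccn2 rose with Trim24 too, and Ccn2, connective tissue growth factor, differed between the arms by 1.07 (adjusted p = 9.14e-06): it was at 4.67, 5.19 and 5.89 CPM and then at 19.4, 20.46 and 20.8 CPM. The fibroblast markers had Col1a1 as their only 1 of 9 tested that rose.

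Of 26 Wnt pathway genes 4 rose: Axin2 (1.84) and Sp5 (1.62), direct targets of beta-catenin, the receptor gene Fzd2 (0.93) and the ligand gene Wnt8a (0.79), which is 15.4% beside 4.91% of all genes. With Trim24 3 rose (11.5% beside 4.18%), Wnt8a and Axin2 among them, and 1 fell. Axin2 went from 9.02, 8.56 and 8.83 CPM to 31.4, 35.3 and 30.5 CPM, with no overlap, and also rose with Trim24 (1.38). The difference passed for Fzd2 (1.16, adjusted p = 0.00025) and for Wnt11 (0.93, adjusted p = 0.00503). Wnt8a was at 0.66 and not called without library 1 at 8 h, and Fzd2 at 0.74 without library 2 at 12 h. In the FGF and ERK list 4 of 16 rose, the ERK phosphatase genes Dusp5 (1.56), Dusp4 (1.48) and Dusp6 (0.96) and the receptor gene Fgfr2 (0.78), which is 25%. With Trim24 3 of 16 rose (18.75%), Dusp4 and Fgfr2 among them. Dusp5 differed between the arms by 0.94, while Fgfr2 was at 0.749 and not called without library 1 at 12 h. In the BMP, Nodal and TGF-beta list Id3 (1.75), Bmp2 (1.35) and Id1 (1.14) rose (13.6%) and Gdf3 fell, of 22. With Trim24 Id1, Id2 and Id3 rose (14.3% beside 4.18%) and 5 of the 21 tested fell (23.8% beside 2.24%).

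Of 23 immediate early genes, the first genes to answer growth factors or stress, 8 rose: Jun (1.40), Klf6 (1.17), Egr2 (1.09), Egr3 (1.09), Jund (1.06), Dusp1 (1.02), Ier5 (0.80) and Fosb (0.79), which is 34.8% beside 4.91% of all genes. Jun went from 26.8, 35.2 and 32.0 CPM to 81.3, 94.1 and 73.2 CPM. With Trim24 4 of 22 rose (18.2% beside 4.18%), and the difference passed for Ier5 alone (0.87, adjusted p = 1.59e-05). The MYC list had 3 of 18 that rose (16.7%) against none with Trim24, Mycn (1.05) and the MYC antagonists Mxd1 (0.90) and Mxd4 (0.77, and 0.73 without library 1 at 8 h), and Myc itself changed by -0.10. The difference between the arms passed the test for none of these 18 genes. Of 17 mesoderm genes 3 rose (17.65% beside 4.91%), Snai1 (1.68), Msx1 (1.64) and the endoderm factor Foxa2. With Trim24 3 rose (17.65% beside 4.18%), Snai1 and Foxa2 among them, and 3 fell (17.65% beside 2.24%). Of 24 epithelial genes 4 rose (16.7%), Ovol1 (1.63), Cldn7 (1.03), Krt18 and Krt19, and with Trim24 3 did (12.5% beside 4.18%), Ovol1, Cldn7 and Krt19. Without library 1 at 8 h of the arm without Trim24, Krt18 was at 0.69 and Krt19 at 0.68, and neither was called. Both also lost the call after quantile normalization and after median centring.

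Stress genes were called without Trim24 and not with it, though few differed by the test of the difference. Of 24 genes of the ATF4 and unfolded protein response 5 rose, Ppp1r15a (1.05), Dnajb9 (1.04), Chac1 (1.02), Vldlr (0.82) and Ddit3 (0.76), 20.8% beside 4.91% of all genes. With Trim24 none rose, beside 4.18%, and Chac1, which degrades glutathione, differed by 0.97 (adjusted p = 0.00119). Of 17 heat shock genes 4 rose, Hspa2 (1.21), Hspa1b (1.06), Hspa1a (0.85) and the co-chaperone gene Bag3 (0.85), which is 23.5% beside 4.91%, against none with Trim24, and Hspa1a differed by 0.94 (adjusted p = 0.00447). Hspa1a was at 32.9, 41.9 and 36.8 CPM and then at 61.1, 85.3 and 58.0 CPM, and Hspa1a and Hspa1b, near-identical copies, both lost their call without library 1 at 8 h (adjusted p = 0.0395 and 0.0115). Bag3 was at 0.74 and not called without library 2 at 12 h. Of 58 replication-dependent histone genes 57 had fallen from 0 to 4 h (98.3% beside 7.04% of all genes). From 8 to 12 h 9 of the 58 rose (15.5% beside 4.91%), and with Trim24 1 rose (1.72% beside 4.18%). Their median transcript GC content was 57.8%, H2ac13 ranged from 5.59 to 12.0 CPM over the 12 h libraries, and H2ac13 and Hist1h2ao lost their call without library 1 at 8 h (adjusted p = 0.0397 and 0.209).

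Of 16 genes listed as p53 targets of cell cycle arrest 4 rose (25% beside 4.91% of all genes), and with Trim24 1 did, Gadd45g (6.25% beside 4.18%). The difference between the arms passed for 1 of the 16, Gadd45b (6.25% beside 0.698% of all genes with a positive difference). Gadd45b was not among the 4 that rose, and none of those 4 differed by the test. None of 13 tested genes of p53 feedback, 19 of apoptosis, 12 of DNA repair and 16 of metabolism passed the test in either direction. Nor did any of 15 genes of the BCL2 family and survival list, which was not a list of p53 targets. Mdm2, the ubiquitin ligase that p53 induces against itself, was at 706.2, 753.8 and 748.9 CPM at 8 h and at 742.5, 725.2 and 721.7 CPM at 12 h, a log2 fold change of -0.01 ± 0.07, against 180.9 CPM at 0 h. Cdkn1a, the cyclin-dependent kinase inhibitor p21, was at 70.7, 75.5 and 89.3 CPM and at 76.6, 79.2 and 76.9 CPM, and its change of -0.01 and that of Mdm2 turned sign under some settings. For both genes the groups overlapped. With Trim24 expressed they changed by 0.30 and 0.25, and neither difference between the arms passed (adjusted p = 0.0402 and 0.204).

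Trp53 RNA went from 107.4, 120.1 and 129.4 CPM to 75.8, 75.7 and 71.9 CPM, a change of -0.67 that was under the fold threshold and stood beside -0.62 with Trim24. The 4 arrest genes that rose were Gadd45g (1.195), Ccng2 (0.93), Plk3 (0.92) and Sfn (0.76), the last of which was at 0.63 and not called without library 1 at 8 h. Of these Ccng2 alone had risen from 0 to 4 h without Trim24, while Gadd45g and Plk3 had fallen and Sfn was not called. Rgcc, a cell cycle regulator, was at 21.7, 21 and 21.9 CPM at 8 h and at 22.2, 28.5 and 19.3 CPM at 12 h, with means of 3.89 and 2.56 CPM with Trim24. Its level was higher without Trim24 at both times and its change over the step did not pass in either arm. The Rgcc value without Trim24, 0.10, turned to -0.055 without library 2 at 12 h.

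Ptgs2, which encodes the prostaglandin synthase Cox2, rose in both arms from different levels. Without Trim24 it was at 64.9, 63.3 and 65.4 CPM at 8 h and at 175.3, 170.4 and 186.8 CPM at 12 h, and with Trim24 at a mean of 6.03 and then 17.5 CPM. The log2 fold changes were 1.45 ± 0.08 and 1.49, and their difference was -0.03 (adjusted p = 0.927). Tnfaip3, an inhibitor of NF-kB signalling, was at 5.52, 5.70 and 5.75 CPM and at 6.23, 6.60 and 6.56 CPM, a change of 0.18. Traf1 (0.83) was the other of the 2 among 23 inflammation genes that rose, 8.70% beside 4.91% of all genes. It was at 0.74 and not called without library 2 at 8 h. With Trim24 4 of 24 rose (16.7% beside 4.18%), Ptgs2 and Traf1 among them, and none of 25 differed between the arms by the test. No member of the ribosomal protein (30), mitochondrially encoded (13), G2/M (28), cholesterol synthesis (20) and germline (18) lists passed the test without Trim24. Over all genes 4.91% rose and 1.47% fell. With Trim24 Cenpe of the G2/M list rose (3.57% beside 4.18% of all genes), and no other member of these lists passed.

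The difference between the steps was tested as such for 17902 genes. For 125 genes (0.698%) the change from 8 to 12 h was larger without Trim24 and for 36 (0.201%) smaller, 0.899% in all, and after median centring the counts were 76 and 40. In all the difference held 110 genes without library 1 at 8 h, 293 without library 3 at 12 h, both of the arm without Trim24, and 8 in limma without trend and robust. Of the 125, 66 rose without Trim24, 53 of them with no call with Trim24 and 12 in both arms, while 22 had no call without Trim24 and fell with it and 37 were called in neither step. Of the 36, 18 rose in both arms and 9 rose with Trim24 only by the call. The p53 decamer stood in 3 of 93 promoters of the first group (Ier5, Tssk6 and Wnt11, named after their values were seen) and in none of 30 of the second.

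The largest positive differences were those of Nrtn (1.85), C2cd4b (1.82), Mrps34 (1.69), Dmrta2 (1.63), Shisa8 (1.60) and Foxq1 (1.59), mostly genes of a few CPM. Foxq1, a forkhead transcription factor gene at chr13:31556134-31560976, was at 1.22, 0.933 and 1.36 CPM and then at 7.20, 8.54 and 6.46 CPM without Trim24. With it the mean went from 1.23 to 2.36 CPM (adjusted p = 1.84e-05). Nrtn, which encodes the growth factor neurturin, was at 0.902, 1.61 and 1.22 CPM and then at 2.42, 4.30 and 1.93 CPM without Trim24, and at means of 3.02 and 1.48 CPM with it. The Nrtn means moved in opposite directions, both past the test.

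The largest negative differences were those of Ccl3 (-1.52), Defb25 (-1.49), Dnah7c (-1.45), 1810062G17Rik (-1.44), Ccser1 (-1.31) and Cpb2 (-1.26). All 6 rose in both arms and by less without Trim24. Ccser1 was at 0.796, 0.830 and 0.951 CPM and then at 3.62, 3.51 and 4.10 CPM without Trim24, and went from a mean of 0.648 to 7.94 CPM with it. Ccl3, a chemokine gene, was at 0.212, 0.207 and 0.0453 CPM and then at 1.30, 1.71 and 2.02 CPM, and went from 0.318 to 7.36 CPM with Trim24. At 8 h each had few reads per library, and the deposited prior count of 8 holds such fold changes down.

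GC content moved with the difference. Transcript GC content, from GENCODE M21, had a median of 58.4% in the 125 genes with a larger change without Trim24, 46.4% in the 36 with a smaller one and 50% in all tested genes, and 69.9% of the former with a transcript lay in the fifth of genes highest in GC content, against 2.94% of the latter. Across the 5 groups of rising GC content, the median log2 fold change went from -0.07 to 0.09 without Trim24 and from 0.07 to -0.12 with it. With a correction for GC content, chosen after seeing the data, 78 genes had a larger and 32 a smaller change, and 83 of the 110 were among the 161. The part of library composition in the difference was not tested otherwise. Without Trim24 the step itself held 803 increases and 255 decreases after the correction, and 1008 of those genes were among the 1102.

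**Figure D5:**
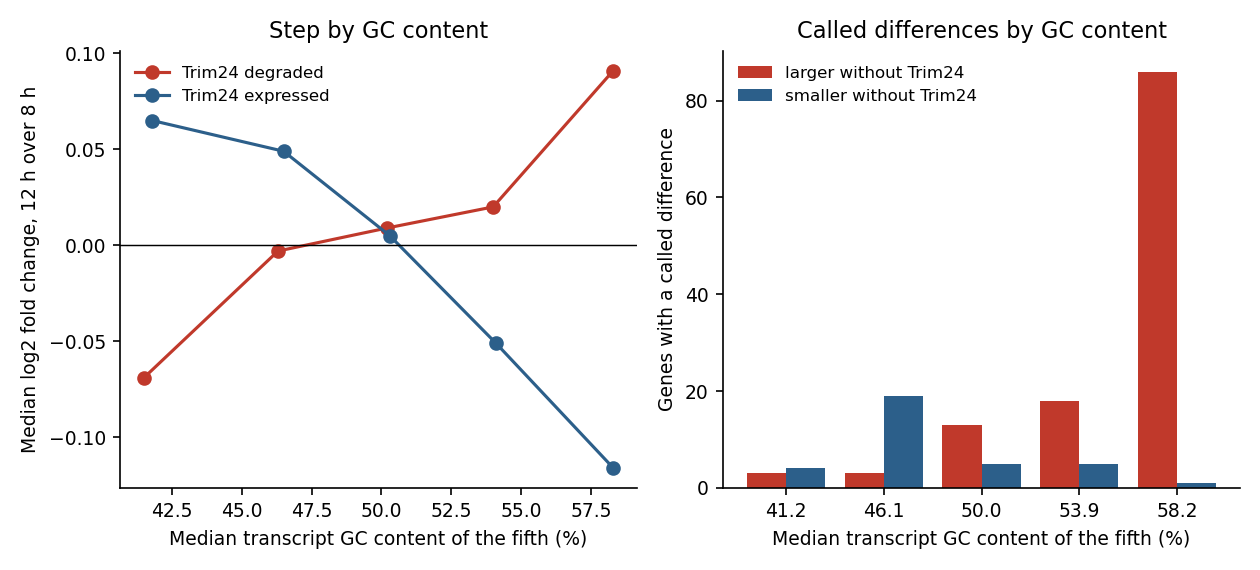
Left, the median log2 fold change from 8 to 12 h in 5 groups of genes by transcript GC content (horizontal axis, percent), red with Trim24 degraded and blue with Trim24 expressed: the lines cross, rising to 0.09 in red and dropping to -0.12 in blue. Right, the number of genes per GC group whose step was larger (red) or smaller (blue) without Trim24, with 86 red and 1 blue in the group highest in GC content.

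Genes of the first response were followed into the late step. Of 2223 genes that had risen from 0 to 4 h without Trim24, 136 rose again from 8 to 12 h (6.12%) and 42 fell (1.89%), beside 4.91% and 1.47% of all genes. Of 1122 that had fallen by 4 h, 96 rose (8.56%) and 43 fell (3.83%) without Trim24. With it, of 1115 tested, 4.22% rose and 9.06% fell, beside 4.18% and 2.24% of all genes. For 33 of 1125 the change was larger without Trim24 by the test of the difference and for 1 smaller, beside 0.698% and 0.201% of all genes. None of these steps shares a library with the 0 to 4 h step.

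Loss of Trim24 at 4 h of doxorubicin had raised 162 genes (1.0% of 16138) and lowered 24 (0.149%). Of the 162, among them Ptgs2, 9 rose (5.56%) and 8 fell (4.94%) from 8 to 12 h without Trim24, beside 4.91% and 1.47% of all genes. Of the 24, 11 rose from 8 to 12 h without Trim24 (Foxo6, Ggn, H2ac6, Hist1h2ao, Id1, Mycn, Nkx6-2, Nrtn, Prr7, Snai1 and Tmem238), 45.8% beside 4.91% of all genes, and none fell, with a median of 0.61. With Trim24 2 of them rose and 3 fell, beside 4.18% and 2.24% of all genes. The difference passed for 5 (Foxo6, Lefty1, Nkx6-2, Nrtn and Prr7), beside 0.899% of all genes in either direction. The median transcript GC content of the 24 was 59.4% and that of the 162 was 48.2%, and the part of GC content in this was not tested.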

How the data were processed

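RNA-seq of the Trim24 degron line was used from the time-course table, 27 libraries, of which 6 form the comparison. Libraries were made from total RNA with a stranded kit. Reads had been demultiplexed by bcl2fastq (2.17 or 2.20) and aligned by STAR against mm10, reads that match several places being assigned at random. Using featureCounts, the authors counted protein-coding genes of GENCODE M25 by name, without the Gm genes, and after TMM scaling in edgeR the deposited values are log2 CPM, the prior count being 8.

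The deposited log2 values were tested as they stand with limma 3.58.1 in R 4.3.3 (lmFit, eBayes with trend and robust; p adjusted after Benjamini and Hochberg). Genes entered when at least 3 of the libraries compared, 6 for a step and 12 for a difference between arms, lay 0.5 or more above the floor of -1.48. Differences between arms were interaction contrasts over 12 libraries. Fold changes are therefore on the scale of log2 CPM with that prior count, which understates changes of low genes. Reads and CPM without the prior count were recovered from the values, 100% of which came out whole within 0.01, and intervals on them would cover counting error only. Per the study's methods the 3 libraries of a group are biological replicates, and p-values measure the spread between them. The code was checked on simulated counts.

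Named are the 12 largest increases and 12 largest decreases among called genes with groups apart and at least 1 CPM, 6 per direction of the difference, up to 4 called members per list, and Trim24, Trp53, Mdm2, Cdkn1a, Ptgs2, Rgcc and Tnfaip3; other genes are members of a list, given to complete its account, or are said to be chosen otherwise. The result of 1 list is not reported here. The 41 lists and the members were chosen with earlier results of these data known. Gene places and transcript GC content come from GENCODE M21 (GRCm38), in which 112 of 117 named genes had 1 place, and promoters from RefSeq on GRCm38.p6. Alternatives were quantile normalization, median centring, other filters, thresholds and prior counts, limma-voom on the recovered reads, eBayes without trend and robust, a replicate block, all 27 libraries in 1 fit and leaving out each library; a GC correction over 50 bins, and the values of single named genes under the filters, thresholds and fits other than scaling, prior count and left-out libraries, were added after seeing the data.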

Additional observations from a re-analysis of the deposited data

Results flagged for a closer look

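The change from 8 to 12 h differed between cells without and with Trim24, by the interaction contrast in limma, for 125 genes in which it was larger without Trim24 and for 36 in which it was smaller. The differences of log2 fold changes among the genes named were 1.85 for Nrtn, 1.82 for C2cd4b, 1.69 for Mrps34, 1.63 for Dmrta2, 1.60 for Shisa8 and 1.59 for Foxq1, and -1.52 for Ccl3, -1.49 for Defb25, -1.45 for Dnah7c, -1.44 for 1810062G17Rik, -1.31 for Ccser1 and -1.26 for Cpb2. The transcripts of Nrtn, C2cd4b, Mrps34, Dmrta2, Shisa8 and Foxq1 had a GC content of 72.8, 68.9, 60.6, 65.4, 65.9 and 56.6%, and those of Ccl3, Defb25, Dnah7c, 1810062G17Rik, Ccser1 and Cpb2 one of 46.2, 52.2, 44.1, 51.3, 44.3 and 44.1%. After the GC correction the difference of Dmrta2 was 1.18 (limma adjusted p = 0.0145) and no longer passed. Without library 1 at 8 h of the arm without Trim24 that of Shisa8 no longer passed (adjusted p = 0.0316). In limma without trend and robust the difference held 8 genes in all, and of the 12 named here only Defb25 passed; Foxq1, for example, had an adjusted p of 0.022 and Cpb2 one of 0.0242. In limma-voom C2cd4b, Dmrta2, Ccl3, Defb25, 1810062G17Rik, Ccser1 and Cpb2 did not pass, and with all 27 libraries in 1 fit Nrtn, Shisa8 and Ccser1 did not. C2cd4b and Shisa8 also lost the call with no filter on low values, Ccl3 and Defb25 with a prior count of 2, and C2cd4b, Shisa8, 1810062G17Rik and Cpb2 without at least 1 of the libraries.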

How the results depend on the processing

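At an adjusted p under 0.05 in limma with no minimum fold change, counts of called genes rose to 6562 (8 to 12 h without Trim24), 6967 (with Trim24), 916 (difference), 11456 (4 to 8 h), 9889 (0 to 4 h) and 1848 (Trim24 loss at 4 h). With no filter on low values the difference held 98 genes and Trim24 loss at 4 h 116. Without trend and robust in eBayes they held 8 and 90, and 1 primitive endoderm gene differed between the arms; the step without Trim24 then held 973. Leaving out 1 library gave 1012 to 1194 for the step without Trim24, 1026 to 1149 with it, 3859 to 4190 for 4 to 8 h, 3003 to 3370 for 0 to 4 h and 147 to 186 for Trim24 loss at 4 h. The difference ranged from 110 without library 1 at 8 h to 293 without library 3 at 12 h, both of the arm without Trim24; the cause was not tested. Under the alternatives that kept both thresholds, 16 or 17 of the 2-cell-like genes and 8 or 9 of the primitive endoderm genes rose, and 5 to 7 of the latter differed between the arms outside the fit without trend and robust. Of 2060 values of 117 named genes over the alternatives, 121 lost the call, in 37 genes, 14 of which lost it without library 1 at 8 h. The sign turned for 6 values, all of uncalled genes whose values without 1 library ranged from -0.042 to 0.005 (Mdm2), -0.082 to 0.085 (Cdkn1a) and -0.055 to 0.222 (Rgcc): Mdm2 (0.104 after quantile normalization, 0.005 without library 2 and 0 without library 3 at 8 h), Cdkn1a (0.002 after GC correction, 0.085 without library 3 at 8 h) and Rgcc (-0.055 without library 2 at 12 h).

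Replicate numbers did not pair the libraries: deviations of same-numbered libraries at 8 and 12 h correlated at 0.1, 0.132 and -0.114 without Trim24. With a replicate block the counts were 1117, 1066, 196, 4086, 3361 and 202 in the order given first. At these depths a gene under 1 CPM has few reads, which limits the low genes among the differences.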

Other observations

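Other lists were counted from 8 to 12 h without Trim24 beside 4.91% of all genes that rose and 1.47% that fell. Ctsl, which encodes the lysosomal protease cathepsin L, was the only 1 of 24 autophagy and lysosome genes that rose (4.17%): it was at 195.6, 223.5 and 232.6 CPM at 8 h and at 388.3, 437.4 and 408.7 CPM at 12 h, with no overlap, and went from a mean of 201.4 to 232.8 CPM with Trim24. The difference was 0.71 on the log2 scale (limma adjusted p = 7.81e-06), under the fold threshold. Of 14 antigen processing genes H2-K1, a class I histocompatibility gene, rose (0.92), which is 7.14% of the list.

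Of 16 neural genes Gap43 (-1.05) and Elavl4 (-0.93) fell and the progenitor factors Neurog2 (0.90) and Sox1 (0.79) rose, which is 12.5% in each direction, and none differed between the arms by the test. Neurog2 was under 1 CPM in every library, and Sox1 was at 0.72 and not called without library 1 at 8 h. Of 20 interferon-stimulated genes Ddx58, the RNA sensor RIG-I, fell (-0.96), from 5.09, 5.50 and 5.07 CPM to 2.61, 2.59 and 2.36 CPM, and it fell with Trim24 too (-1.19); it was 5.0% of the list. Of 20 glycolysis and hypoxia genes Ndrg1 rose (0.82) and Pfkp fell (-0.76), 5.0% in each direction, and each was not called without at least 1 of the libraries, with values of 0.749 for Ndrg1 without library 2 at 12 h and -0.70 for Pfkp without library 3 at 8 h.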
